A study of Mus musculus with 8 samples.

Results

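Haematopoietic stem cells labelled as lacking Scribble, Yap1 and Taz were compared with stem cells labelled as lacking Scribble alone, which asks what loss of Yap1 and Taz adds where Scribble is already lost. Of 33641 gene symbols measured, 13169 were included. These had at least 1 TPM (a transcript level scaled by gene length and set to a fixed total per library) in at least 2 of the 4 libraries compared. Symbols with -ps or with Gm followed by digits, which mostly stand for pseudogenes and unnamed gene models, were set aside. They made up 1902 of the 15071 symbols that passed the level filter. The first group has the genotype Scribble-/-;Taz-/-;Yap1-/- (2 libraries), called triple null here, and its comparator has the genotype Scribble-/- (2 libraries). The series also holds Taz-/-;Yap1-/- cells (2 libraries), called Yap1 Taz null, and wild-type cells (2 libraries). All animals, wild type included, were C57BL/6 mice with Mx1-Cre, a recombinase gene under an interferon-responsive promoter that is active in blood cells and also in other interferon-responsive tissues. All had received 6 injections of polyI:C, a synthetic RNA that triggers an interferon response, at 10 mg/kg every other day, and bone marrow stem cells were collected 1 week after induction. The age of the mice, and whether the libraries of a group came from separate animals, are not given, so the p-values measure only the spread between these libraries.

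Scribble is a scaffold protein of the basolateral polarity complex. Yap1 and TAZ, the product of Wwtr1, are transcriptional co-activators that bind TEAD factors. They are held in the cytoplasm by the Hippo kinases Lats1 and Lats2, and Scribble is known from epithelial cells to help bring these kinases to TAZ. Stem cells sorted from bone marrow are mostly quiescent, and entry into the cell cycle, interferon and immediate early transcription factors are known to change their state.

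The transcript levels of the deleted genes did not separate the labels. Scrib was at 14.5 and 7.54 TPM in libraries labelled triple null, against 6.25 and 7.63 TPM in those labelled Scribble null, beside 7.98 and 7.32 TPM in the Yap1 Taz null libraries and 8.19 and 9.29 TPM in the wild-type libraries. Yap1 was at 2.25 and 2.37 TPM in triple null and 5.83 and 2.45 TPM in Scribble null libraries, beside 2.13 and 6.63 TPM in the Yap1 Taz null libraries and 2.0 and 2.15 TPM in the wild-type libraries. Wwtr1 was at 1.92 and 0.775 TPM in triple null and 5.32 and 3.91 TPM in Scribble null libraries, and the log2 difference was -1.29 ± 0.37 (SE) and the adjusted p 0.329. In wild-type libraries it was at 0.73 and 1.19 TPM, close to the triple null libraries. None of the 3 genes was called between the groups compared. A gene-level value also counts exons outside a deletion, and no source used here names the deleted exons, so the values do not check the deletions. Groups are therefore named by their labels throughout.

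The cells carried the transcripts of stem cells in both groups. All 34 genes of a stem cell list were included, with a median log2 difference of -0.04, and none was called. Mecom, a transcription factor of long-term stem cells, was at 231 and 222 TPM in libraries labelled triple null, against 235 and 235 TPM in those labelled Scribble null. Procr, which encodes the surface receptor EPCR, was at 149 and 143 TPM in triple null and 142 and 113 TPM in Scribble null libraries. Cd48, a surface marker that the usual SLAM sort leaves out, was at 1.21 and 2.37 TPM in triple null and 1.61 and 3.3 TPM in Scribble null libraries. Across genes, log2 levels of the triple null libraries correlated at 0.965 with each other and those of the Scribble null libraries at 0.953. Scribble null replicate 2 correlated slightly higher, at 0.958, with triple null replicate 2. Mitochondrial transcripts made up 3.05% and 2.80% of TPM in the triple null libraries and 3.29% and 3.78% in the Scribble null libraries.

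Few single genes differed beyond the spread of the libraries. Of the 13169 genes included, 19 were called at an adjusted p under 0.05 (limma on log2(TPM + 1), adjusted by the Benjamini-Hochberg method over all 16064 genes tested), 7 higher and 12 lower in triple null cells. With median-ratio scaling of the libraries the split was 10 higher and 11 lower. Over all genes tested 34 were called, 0.212%, with 0.112% higher and 0.0996% lower. At an unadjusted p under 0.05, 625 of the genes included were higher and 604 lower, and over all genes tested 4.56% were higher and 4.59% lower. In 5439 of the genes included the 2 triple null libraries did not overlap the 2 Scribble null libraries, against 40.1% over all genes tested. The median log2 difference over all genes tested was -0.01, with 0.23 at the upper and -0.26 at the lower quartile. Leaving out triple null replicate 1 gave 12 calls and leaving out replicate 2 gave 11. In both cases 5 of the 19 remained called, namely Rps3a1, Rps3a2, Rps3a3, Eno1b and BC002163, while the other 14 had adjusted p between 0.0584 and 0.298. Leaving out Scribble null replicate 1 gave 11 calls, all among the 19, and lost Bhlhe40, Erdr1, Gdf15, Hes1, Hey1, Hspa1a, Hsph1 and Ifi44l at adjusted p of 0.0806 to 0.175. Leaving out Scribble null replicate 2 gave 43 calls, with 16 of the 19 among them, and lost Gdf15, Hspa1a and Hsph1. Leaving out either wild-type library lost Gdf15, Hes1, Hey1, Hspa1a, Hsph1 and Ifi44l at adjusted p of 0.0523 to 0.0969. Leaving out either Yap1 Taz null library lost Hey1, Hspa1a and Hsph1 at adjusted p of 0.0532 to 0.0946. A fit on the 4 compared libraries alone called 4. A group left with 1 library is assumed to vary like the others in these fits. Rps3a1, Rps3a2, Rps3a3, Eno1b and BC002163, which stayed called without either triple null library, all have near-identical copies. With the copies summed and all 8 libraries in the fit, none of these 5 passed (limma, adjusted p of 0.331 to 0.701).

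**Figure D1:**
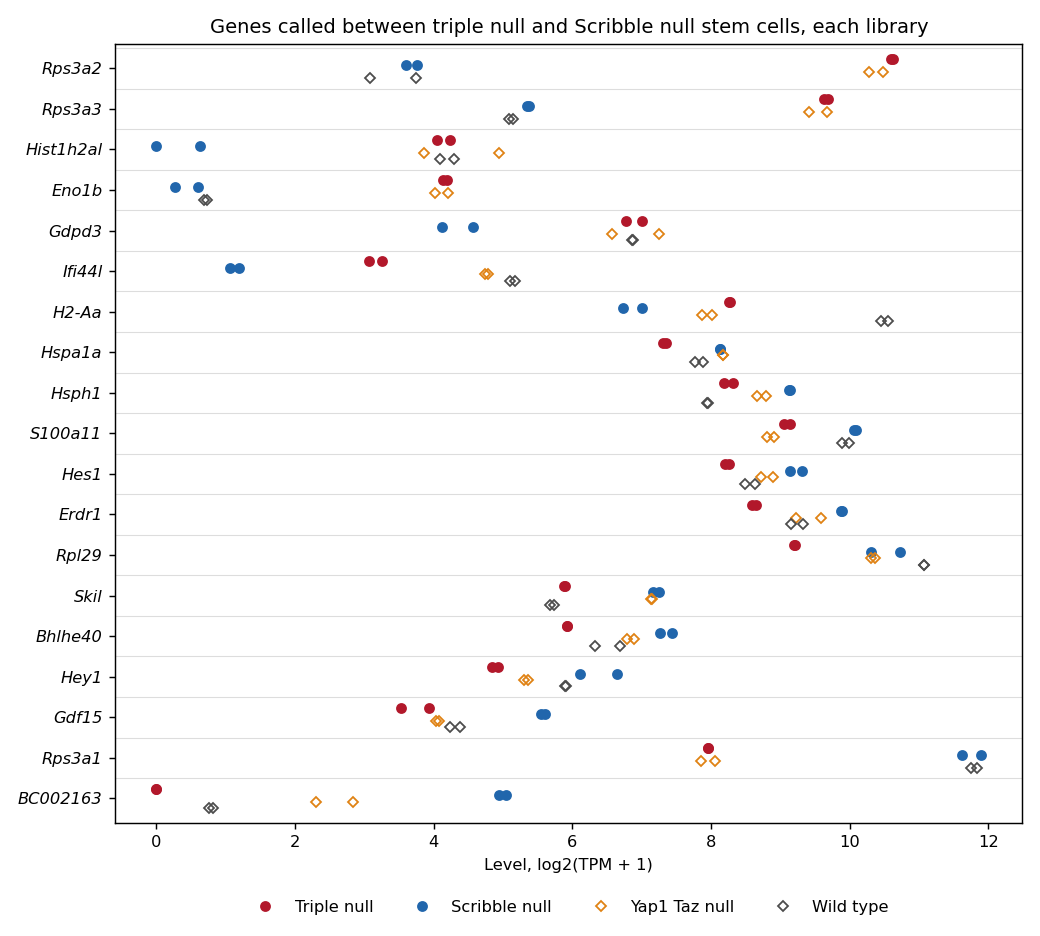
Level of the 19 called genes in each of the 8 libraries, as log2(TPM + 1) on the horizontal axis, ordered by the difference between groups. Filled circles are triple null and Scribble null libraries, open diamonds are Yap1 Taz null and wild-type libraries, and in each of the 19 genes the filled circles of the compared groups do not overlap.

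Among the called genes the largest log2 difference in size was that of Rps3a2. It is 1 of 3 near-identical genes called for one ribosomal protein of the small subunit. Rps3a1, the gene with introns (chromosome 3, 86137940 to 86142702, mm10), fell to 247 and 247 TPM in libraries labelled triple null, against 3813 and 3159.5 TPM in those labelled Scribble null (log2 difference -3.81 ± 0.13, SE; adjusted p = 3.95e-06). Rps3a2, annotated as a processed pseudogene (chromosome 14, 88123017 to 88123808), rose to 1546 and 1574 TPM in libraries labelled triple null, against 11.2 and 12.6 TPM in those labelled Scribble null (log2 difference 6.92 ± 0.21, SE; adjusted p = 2.77e-06). Rps3a3, also a processed pseudogene (chromosome 13, 108670603 to 108671397), rose to 822 and 794 TPM in libraries labelled triple null, against 39.5 and 40.4 TPM in those labelled Scribble null (log2 difference 4.30 ± 0.13, SE; adjusted p = 2.77e-06). Aligned to the transcript of Rps3a1, Rps3a2 was identical at 788 of 792 bases (99.5%) and Rps3a3 at 786 of 795 (98.9%). A stretch of 60 coding bases that holds 3 of the differing positions, in capitals, shows how little tells the 3 transcripts apart:
Rps3a1: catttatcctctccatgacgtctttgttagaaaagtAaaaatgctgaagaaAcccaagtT
Rps3a2: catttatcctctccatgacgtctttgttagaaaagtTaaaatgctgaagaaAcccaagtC
Rps3a3: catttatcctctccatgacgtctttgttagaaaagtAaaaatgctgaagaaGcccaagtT
Summed over 6 near-identical symbols, the level was 2619.9 and 2620.2 TPM in the triple null libraries and 3885 and 3227 TPM in the Scribble null libraries, a log2 difference of -0.43 at an adjusted p of 0.331. Summing turned the direction for Rps3a2 and Rps3a3 and ended all 3 calls.

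Eno1b, a near-identical copy of the enolase gene Eno1, rose to 16.5 and 17.2 TPM in libraries labelled triple null, against 0.522 and 0.208 TPM in those labelled Scribble null (log2 difference 3.72 ± 0.29, SE; adjusted p = 0.00192). The sum of Eno1b and Eno1 was 118 and 114 TPM in triple null libraries and 139 and 126 TPM in Scribble null libraries, with a log2 difference of -0.19 and an adjusted p of 0.701. BC002163, a processed pseudogene close to the complex I gene Ndufs5 and named here although the naming rule skips it, was listed at 0 in both triple null libraries, against 29.9 and 32.1 TPM in the Scribble null libraries. With Ndufs5 added the values were 51.5 and 74.4 TPM in triple null libraries, against 107 and 91.6 TPM in Scribble null libraries, and the call was lost at an adjusted p of 0.465. Rps3a2 and Eno1b differed in the same direction between libraries labelled Yap1 Taz null and wild type, since Rps3a2 was at 1429 and 1235 TPM in the Yap1 Taz null libraries and 7.44 and 12.4 TPM in the wild-type libraries and Eno1b at 15.2 and 17.5 TPM in the Yap1 Taz null libraries and 0.602 and 0.666 TPM in the wild-type libraries. BC002163 was opposite there, at 6.12 and 3.94 TPM in the Yap1 Taz null libraries and 0.752 and 0.69 TPM in the wild-type libraries (log2 difference 1.79 ± 0.31, SE; adjusted p = 0.0485). How reads shared by copies were assigned is not stated by any source used here.

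Rpl29, of the large ribosomal subunit, was the other cytosolic ribosomal protein gene called lower. It was at 588 and 594 TPM in libraries labelled triple null, against 1269 and 1698 TPM in those labelled Scribble null; the log2 difference was -1.31 ± 0.14 (SE) and the adjusted p 0.0101. No near-identical copy of it was found, yet in the authors' other table of the whole series its log2 difference was -4.76. Of 79 cytosolic ribosomal protein genes, 2 were called, both lower and both named above. At an unadjusted p under 0.05, 6 were higher and 3 lower. In the list 56 had a log2 difference above 0 and 23 below it, and the median was 0.11. Rpsa, of the small subunit, was at 1606 and 1568 TPM in triple null and 1117 and 1221 TPM in Scribble null libraries, and its adjusted p was 0.192. Rplp1, of the large subunit, was at 2778 and 2695 TPM in triple null and 6540.4 and 4155 TPM in Scribble null libraries, with a log2 difference of -0.93 and an adjusted p of 0.232. With its near-identical copy added the log2 difference was -0.93.

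One antigen presentation gene of MHC class II was called, higher in triple null cells. H2-Aa, the alpha chain of the class II molecule I-A (chromosome 17, 34282744 to 34287823), rose to 309.7 and 304 TPM in libraries labelled triple null, against 127 and 105 TPM in those labelled Scribble null; the log2 difference was 1.40 ± 0.13 (SE) and the adjusted p 0.00474. Its partner chain H2-Ab1 was at 155 and 166 TPM in triple null and 71.2 and 83.9 TPM in Scribble null libraries, with a log2 difference of 1.04 and an adjusted p of 0.0555. Cd74, the invariant chain that guides class II molecules to the endosome, was at 284 and 289 TPM in triple null and 106 and 113 TPM in Scribble null libraries, with a log2 difference of 1.38 and an adjusted p of 0.0573. H2-Eb1, the beta chain of the molecule I-E, was at 49.8 and 55.1 TPM in triple null and 9.5 and 19.2 TPM in Scribble null libraries (adjusted p = 0.175). In all 4 genes, which had the smallest p of the class II list, both triple null libraries lay above both Scribble null libraries. In that list 5 genes were higher without overlap, against 19.0% of all genes tested. H2-Oa was the 1 gene lower without overlap, against 21.1%, at 21.1 and 19.3 TPM in triple null and 26.5 and 23.6 TPM in Scribble null libraries. Ciita, the master co-activator of class II genes, was low, at 1.68 and 2.02 TPM in triple null and 0.63 and 1.8 TPM in Scribble null libraries. The peptide-loading genes H2-DMa and H2-DMb1 were at 141 and 131 TPM in triple null and 125 and 119 TPM in Scribble null libraries, and at 31.9 and 25.3 TPM in triple null and 47.9 and 20.9 TPM in Scribble null libraries.

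Of the 10 class II genes included, 1 was called, 4 were higher and none lower at an unadjusted p under 0.05, 6 had a log2 difference above 0 and 4 below it, and the median was 0.28. Summed over the list the level was 1009.5 and 1012 TPM in the triple null libraries, against 535 and 511 TPM in the Scribble null libraries. Wild-type libraries stood at 2894 and 3256 TPM, so the triple null level lay between Scribble null and wild type. Of 8 included markers of monocytes, macrophages and dendritic cells none was called. Summed over all 16 markers listed, the level was 332 and 279 TPM in the triple null libraries, against 315 and 266 TPM in the Scribble null libraries. The dendritic cell receptor gene Clec9a was at 3.4 and 3.58 TPM in triple null and 8.61 and 11.7 TPM in Scribble null libraries, in the other direction. Among 19 B cell markers, since B cells also carry class II, 8 were included, 5 with a log2 difference above 0 and 3 below it. Summed over all 19, the level was 325 and 969 TPM in the triple null libraries, against 38.8 and 40.3 TPM in the Scribble null libraries. Most of it in the triple null libraries was from the immunoglobulin genes Igkc, at 55.6 and 879 TPM, and Ighm, at 234 and 8.75 TPM. Vpreb3, another B cell marker, was in the other direction, at 0 and 0.277 TPM in triple null and 2.11 and 4.46 TPM in Scribble null libraries. The B cell genes Cd79a and Pax5 were under 1 TPM in all 4 libraries, and the part of other cells in the class II values was not tested. Values in bulk RNA cannot tell fewer cells of a type from less RNA per cell.

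The 250 bases before the start of H2-Aa and H2-Eb1 are shown because class II promoters are known to carry a Y box, the CCAAT motif bound by NF-Y, in capitals on either strand. The sequences are from RefSeq on GRCm38.p6, 5′ to 3′ on the strand of the gene.
H2-Aa, chr17:34287824-34288073, minus strand: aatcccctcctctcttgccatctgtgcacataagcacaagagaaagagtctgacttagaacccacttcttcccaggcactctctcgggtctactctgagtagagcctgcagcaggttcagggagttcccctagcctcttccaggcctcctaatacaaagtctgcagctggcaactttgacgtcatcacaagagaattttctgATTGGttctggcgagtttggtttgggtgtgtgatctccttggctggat
H2-Eb1, chr17:34305617-34305866, plus strand: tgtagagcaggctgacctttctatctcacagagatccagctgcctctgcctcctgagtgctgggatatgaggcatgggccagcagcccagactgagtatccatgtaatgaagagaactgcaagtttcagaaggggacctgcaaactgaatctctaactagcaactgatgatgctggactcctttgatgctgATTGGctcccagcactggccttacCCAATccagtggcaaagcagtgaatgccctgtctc
H2-Aa held 1 such motif and H2-Eb1 held 2. The motif is common, since 37.495% of the 27025 genes in the promoter table hold it. Of the called genes in that table, 1 of 3 called higher and 3 of 5 called lower held it.

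Ifi44l, an interferon-induced gene, rose to 8.51 and 7.39 TPM in libraries labelled triple null, against 1.29 and 1.09 TPM in those labelled Scribble null; the log2 difference was 2.03 ± 0.23 (SE) and the adjusted p 0.0135. It was still below the wild-type libraries, at 35.2 and 33.4 TPM. The interferon-inducible GTPase genes Tgtp1 and Tgtp2 are near-identical copies. Their sum was 325 and 344 TPM in the triple null libraries and 174 and 196 TPM in the Scribble null libraries, and the sum passed the test (log2 difference 0.86, adjusted p = 0.0387), while Tgtp1 alone had an adjusted p of 0.0568. A related GTPase gene, Ifi47, was at 284 and 313 TPM in triple null and 147 and 182 TPM in Scribble null libraries (adjusted p = 0.0705). Isg20, an interferon-induced exonuclease, was at 75.5 and 85.7 TPM in triple null and 43 and 37.7 TPM in Scribble null libraries (adjusted p = 0.0678). Over 50 interferon-induced genes, a list that does not hold Ifi44l, none was called, 12 were higher and 2 lower at an unadjusted p under 0.05, and the median was 0.10. Of 20 class I and peptide loading genes, 4 were higher and none lower at an unadjusted p, with a median of 0.21. Psmb10, a subunit of the immunoproteasome, was at 159 and 142 TPM in triple null and 93.3 and 95.6 TPM in Scribble null libraries (adjusted p = 0.146).

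Several transcriptional repressors were lower in triple null cells, among them targets of Notch and TGF-beta signals. Hes1, a basic helix-loop-helix repressor and classical Notch target (chromosome 16, 30064384 to 30067796), fell to 305 and 294 TPM in libraries labelled triple null, against 637 and 562 TPM in those labelled Scribble null; the log2 difference was -0.99 ± 0.12 (SE) and the adjusted p 0.0212. Hey1, a second Notch target of the same class (chromosome 3, 8663359 to 8667256), fell to 27.7 and 29.3 TPM in libraries labelled triple null, against 98.8 and 67.8 TPM in those labelled Scribble null; the log2 difference was -1.49 ± 0.20 (SE) and the adjusted p 0.0324. Its Scribble null libraries were further apart than its triple null libraries. Bhlhe40, a related repressor known from the circadian clock and from stress responses, fell to 59.4 and 59.4 TPM in libraries labelled triple null, against 172 and 152 TPM in those labelled Scribble null; the log2 difference was -1.43 ± 0.16 (SE) and the adjusted p 0.0127. The wild-type libraries were at 358 and 396 TPM for Hes1, 58.9 and 58.7 TPM for Hey1 and 79 and 102 TPM for Bhlhe40. In all 3 genes the triple null values were also below these, but none was called between triple null and wild type. The adjusted p there was 0.378 for Hes1, 0.0959 for Hey1 and 0.224 for Bhlhe40 (limma).

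Beyond these targets no gene of the Notch pathway was called. In a list of 34 pathway genes chosen after the values of Hes1 and Hey1 were seen, 30 were included, and Hes1 and Hey1 were the only genes called or lower at an unadjusted p under 0.05. The median was -0.16. The receptor gene Notch2 was at 46.5 and 52 TPM in triple null and 53.8 and 51.8 TPM in Scribble null libraries, and Notch1 at 10.8 and 12 TPM in triple null and 10.0 and 33.8 TPM in Scribble null libraries. Rbpj, the DNA-binding partner of the cleaved receptor, was at 43.4 and 36.2 TPM in triple null and 35.2 and 45.3 TPM in Scribble null libraries. The ligand genes Dll1 and Dll4 were near the level filter, at 0.331 and 0.107 TPM in triple null and 1.05 and 1.84 TPM in Scribble null libraries, and at 0.469 and 0.606 TPM in triple null and 1.81 and 1.7 TPM in Scribble null libraries.

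Skil encodes SnoN, a co-repressor of SMAD proteins that TGF-beta induces as a feedback inhibitor (chromosome 3, 31095058 to 31122577). It fell to 58.6 and 57.6 TPM in libraries labelled triple null, against 142 and 151 TPM in those labelled Scribble null; the log2 difference was -1.32 ± 0.13 (SE) and the adjusted p 0.0062. The wild-type libraries were at 50.1 and 52.5 TPM, close to the triple null libraries. Skil was the gene called among 26 genes of TGF-beta and BMP signalling, of which 3 were lower and none higher at an unadjusted p, with a median of -0.25. Smad7, another feedback inhibitor, was at 27.2 and 42.1 TPM in triple null and 85.3 and 71.9 TPM in Scribble null libraries (adjusted p = 0.265). Id1, a target of BMP signals, was at 36 and 23.6 TPM in triple null and 90.0 and 57.3 TPM in Scribble null libraries (adjusted p = 0.278). Among the TGF-beta receptor genes the log2 differences were 0.08 for Tgfbr2 and 0.12 for Tgfbr3, and -0.50 for Tgfbr1.

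Gdf15, a secreted factor of the TGF-beta family that cell stress and p53 induce (chromosome 8, 70629393 to 70632456), fell to 14.3 and 10.5 TPM in libraries labelled triple null, against 47.9 and 45.6 TPM in those labelled Scribble null; the log2 difference was -1.85 ± 0.21 (SE) and the adjusted p 0.0147. The Yap1 Taz null libraries, at 15.3 and 15.9 TPM, and the wild-type libraries, at 19.7 and 17.8 TPM, were close to the triple null libraries. In a list of p53 targets chosen after these values were seen, Gdf15 was the gene called among 14, and 3 in all were lower at an unadjusted p. Cdkn1a, the p53-induced cell cycle inhibitor, was at 74.2 and 56.6 TPM in triple null and 98 and 108 TPM in Scribble null libraries, with a log2 difference of -0.66.

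Immediate early genes, which answer to growth factors and stress within minutes, gave no single call. Of 30 genes none was called, 14 were lower and none higher at an unadjusted p under 0.05, and the median was -0.47. In 22 of the 30 both triple null libraries lay below both Scribble null libraries, against 21.1% of all genes tested. Summed, the list was at 6103 and 6218 TPM in the triple null libraries, against 7939 and 8428 TPM in the Scribble null libraries, and the wild-type libraries were at 6196 and 5875 TPM. The nuclear receptor gene Nr4a2 was at 221 and 242 TPM in triple null and 404 and 371 TPM in Scribble null libraries (adjusted p = 0.0919). Egr1, a zinc finger factor linked to stem cell quiescence, was at 753 and 747 TPM in triple null and 1074 and 1146 TPM in Scribble null libraries (adjusted p = 0.146). Zfp36, which promotes decay of inflammatory transcripts, was at 933 and 987 TPM in triple null and 1404 and 1407 TPM in Scribble null libraries (adjusted p = 0.128). In the list 27 had a log2 difference below 0 and 3 above it. Myc was higher, at 304 and 323 TPM in triple null and 256 and 269.9 TPM in Scribble null libraries, with a log2 difference of 0.25. The libraries of the groups overlapped for Dusp1, a phosphatase of MAP kinases, at 878 and 923 TPM in triple null and 832 and 1023 TPM in Scribble null libraries. Quiescence genes and cell cycle inhibitors, a list that shares Nr4a1, Nr4a2, Egr1 and Btg2 with the immediate early list, had 6 of 24 lower and 1 higher at an unadjusted p. The 1 higher was Gfi1b, a repressor that restrains stem cell cycling, at 78.5 and 96.5 TPM in triple null and 40.9 and 43.6 TPM in Scribble null libraries (adjusted p = 0.0984).

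**Figure D2:**
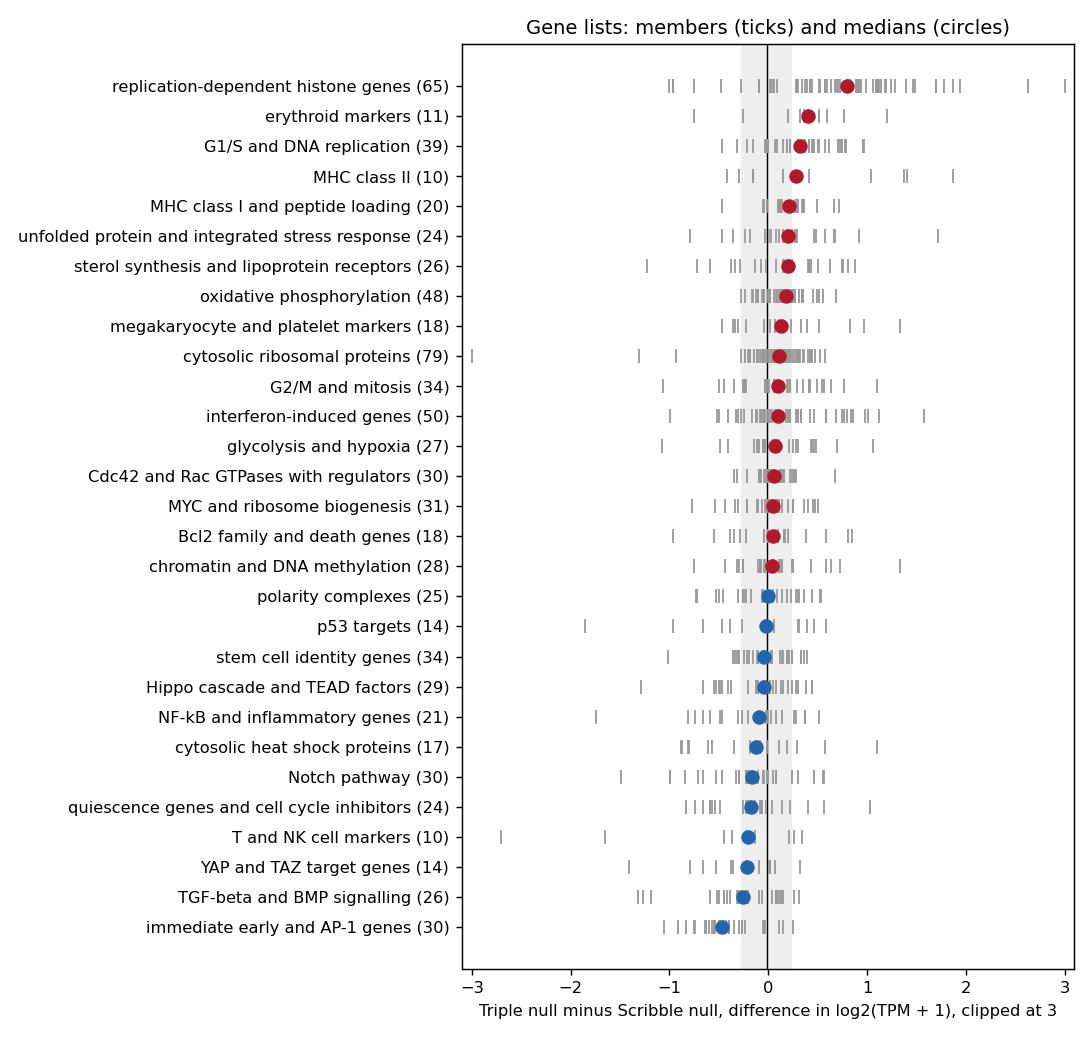
Difference between triple null and Scribble null cells in log2(TPM + 1) for the gene lists with at least 10 genes included, given in parentheses. Ticks are genes, drawn at 3 where they lie beyond, circles are list medians, and the grey band spans the quartiles of all genes tested, -0.26 to 0.23; medians outside it are those of the histone list at 0.80, erythroid markers at 0.41, G1/S genes at 0.32, class II genes at 0.28 and immediate early genes at -0.47.

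Among chaperone genes of the cytosol, 2 stress-inducible ones were called lower in triple null cells. Hsph1, a nucleotide exchange factor for Hsp70 chaperones (chromosome 5, 149614287 to 149636376), fell to 292 and 317 TPM in libraries labelled triple null, against 557 and 565 TPM in those labelled Scribble null; the log2 difference was -0.88 ± 0.11 (SE) and the adjusted p 0.0212. Hspa1a, a stress-inducible Hsp70 gene (chromosome 17, 34969190 to 34972156), fell to 158 and 163 TPM in libraries labelled triple null, against 279.7 and 279.9 TPM in those labelled Scribble null; the log2 difference was -0.80 ± 0.11 (SE) and the adjusted p 0.0347. Neither call held when any 1 of the 8 libraries was left out, with adjusted p of 0.0532 to 0.298. Its neighbour Hspa1b was at 70.3 and 75.9 TPM in triple null and 126 and 132 TPM in Scribble null libraries (adjusted p = 0.081), and Hspb1, a small heat shock protein gene, at 55.1 and 40.9 TPM in triple null and 90.3 and 85 TPM in Scribble null libraries (adjusted p = 0.248). The constitutive Hspa8 was at 2106 and 2308 TPM in triple null and 1939.8 and 1683 TPM in Scribble null libraries, with a log2 difference of 0.29. Of 17 cytosolic heat shock genes 2 were called, both lower, and 7 were lower and 2 higher at an unadjusted p, with a median of -0.13. Log2 differences in this list ran from -0.88 to 1.10, with 12 below 0 and 5 above it. Hsf1, the factor that induces them, was at 72.3 and 61.2 TPM in triple null and 67.3 and 73.6 TPM in Scribble null libraries. The 250 bases before the start of Hspa1a are shown for the heat shock element, searched as GAANNTTC on both strands, in capitals.
Hspa1a, chr17:34972157-34972406, minus strand: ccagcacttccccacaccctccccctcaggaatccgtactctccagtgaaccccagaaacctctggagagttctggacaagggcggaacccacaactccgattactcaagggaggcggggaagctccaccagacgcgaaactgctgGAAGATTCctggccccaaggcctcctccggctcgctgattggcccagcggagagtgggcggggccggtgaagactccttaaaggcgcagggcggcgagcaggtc
It held 1 match to this pattern, and the windows of Hsph1 held none. Other arrangements of the element were not searched, so the windows of Hsph1 cannot be said to lack it. A match is held by 7.726% of all genes in the promoter table, among them H2-Aa, which was called higher.

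Among histone genes that are expressed in S phase 1 was called, and its call depended on how near-identical copies were treated. Of 65 replication-dependent histone genes included out of 70, a list chosen after their values were seen, 57 had a log2 difference above 0, with a median of 0.80. At an unadjusted p 32 were higher and 2 lower, and 1 was called. Summed over all 70, the level was 6239 and 6724 TPM in the triple null libraries, against 2962 and 4337 TPM in the Scribble null libraries, beside 7689 and 6979 TPM in wild type. The gene called was Hist1h2al, an H2A copy annotated as a processed pseudogene, at 17.8 and 15.6 TPM in libraries labelled triple null, against 0.542 and 0 TPM in those labelled Scribble null; the log2 difference was 3.83 ± 0.40 (SE) and the adjusted p 0.00927. With 3 near-identical copies added its sum was 95 and 68.9 TPM in triple null and 51.5 and 109.5 TPM in Scribble null libraries, and the call was lost (adjusted p = 0.961). Hist1h2bl, an H2B gene, was at 1118 and 1212 TPM in triple null and 592 and 748 TPM in Scribble null libraries (adjusted p = 0.0984). Hist1h1a, a linker histone gene, was at 51.3 and 59.5 TPM in triple null and 7.78 and 23.5 TPM in Scribble null libraries. Many histone genes are near-identical, so single values are uncertain. The Scribble null libraries were further apart than the triple null libraries in the sum.

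Of 39 genes of G1/S and DNA replication none was called, 13 were higher and 1 lower at an unadjusted p, and the median was 0.32. Their sum was 2830.1 and 2925 TPM in the triple null libraries, against 2401 and 2488 TPM in the Scribble null libraries, and 3328 and 3404 TPM in wild type. Gins2, a subunit of the replicative helicase, was at 89.7 and 93.2 TPM in triple null and 52.6 and 58.1 TPM in Scribble null libraries (adjusted p = 0.146). Pcna, the polymerase clamp, was at 383 and 388 TPM in triple null and 244 and 319 TPM in Scribble null libraries (adjusted p = 0.365). The cyclin genes diverged, since Ccnd1 was at 28.3 and 29 TPM in triple null and 17.5 and 15.9 TPM in Scribble null libraries and Ccnd3, the lower one, at 94.7 and 94.8 TPM in triple null and 120.2 and 145 TPM in Scribble null libraries. Of 34 mitotic genes 5 were higher and none lower at an unadjusted p, with a median of 0.10. Mki67, a marker of cycling cells, was at 114 and 136 TPM in triple null and 77.8 and 92.4 TPM in Scribble null libraries (adjusted p = 0.31).

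**Figure D3:**
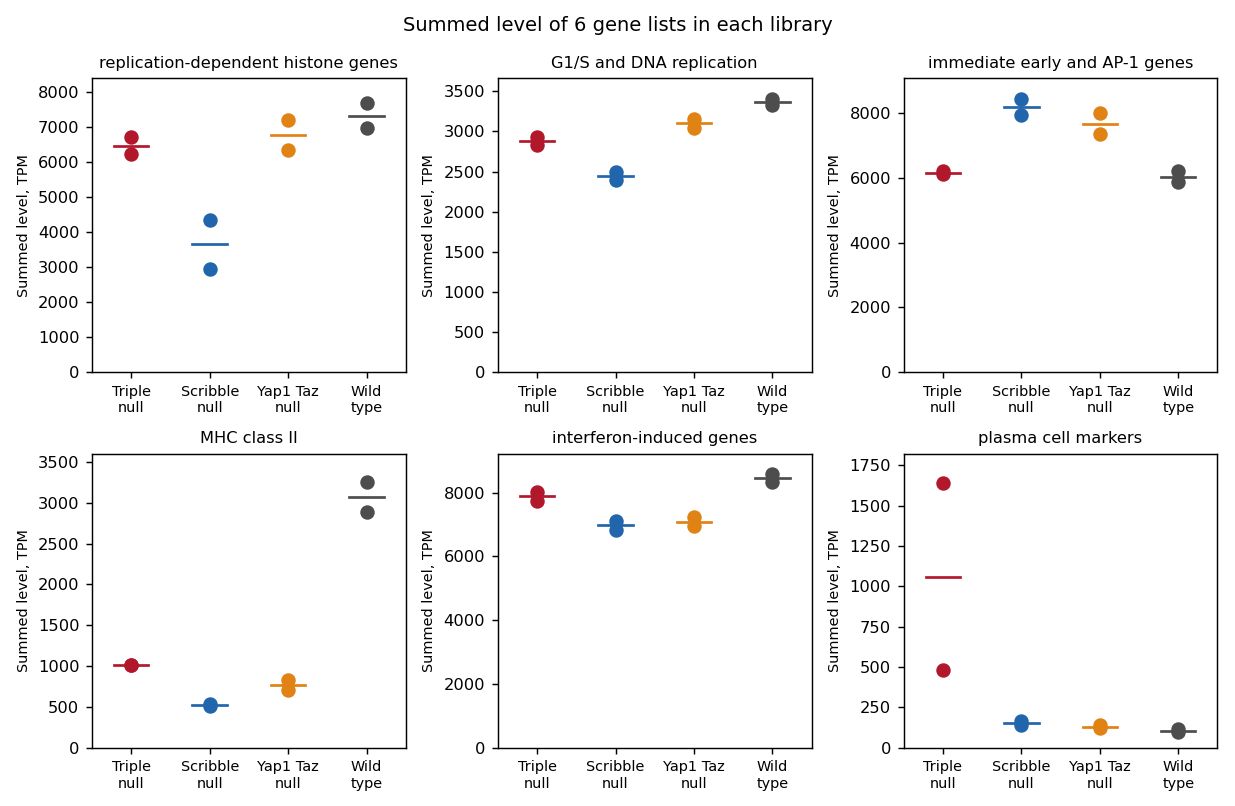
Summed TPM of all measured genes of 6 lists in each library, included or not, with a short line at the mean of the 2 libraries of a group. Both triple null libraries lie above both Scribble null libraries in the histone, G1/S, class II, interferon and plasma cell lists and below them in the immediate early list; the plasma cell list is at 482 and 1639.9 TPM in the triple null and 167 and 139 TPM in the Scribble null libraries.

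Many known targets of Yap1 and TAZ were low in these cells. Of 26 targets 14 were included, none was called, 1 was lower at an unadjusted p, and the median was -0.22. The lower one was Cyr61, a matricellular protein gene and classical target, at 9.85 and 6.5 TPM in libraries labelled triple null, against 25 and 21.3 TPM in those labelled Scribble null. The log2 difference was -1.41 and the adjusted p 0.0926. Both other groups were higher, with 31.9 and 28.1 TPM in the Yap1 Taz null libraries and 30.7 and 35.2 TPM in the wild-type libraries. Ctgf, the other classical target, was at 0.281 and 0.0265 TPM in triple null and 0 and 0.0274 TPM in Scribble null libraries, and Ankrd1 was listed at 0 in all 4. Axl, a receptor kinase gene, was at 6.76 and 6.5 TPM in triple null and 16.9 and 8.79 TPM in Scribble null libraries, and Amotl2, a feedback inhibitor, at 2.0 and 1.79 TPM in triple null and 3.74 and 3.43 TPM in Scribble null libraries. The motif GGAATG, bound by TEAD factors, was in the promoter of Gdf15, 1 of the 5 genes called lower that the promoter table holds, and in none of 3 called higher. It is held by 14.357% of all genes listed there.

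The pathway upstream showed no call. Of 29 Hippo and TEAD genes none was called and the median was -0.04. Map4k4, a kinase that feeds into Lats, was at 74.2 and 93.4 TPM in triple null and 114 and 119 TPM in Scribble null libraries (adjusted p = 0.434). Sav1, the scaffold of the Mst kinases, was at 30.9 and 28 TPM in triple null and 18.3 and 24.9 TPM in Scribble null libraries. Of 25 polarity genes none was called or passed an unadjusted p under 0.05, with a median of 0.00. Of 30 genes of Cdc42, Rac and their regulators none was called, 2 were higher at an unadjusted p and none lower. Arhgdib, a dissociation inhibitor of small GTPases in blood cells, was at 896 and 913 TPM in triple null and 521 and 617 TPM in Scribble null libraries (adjusted p = 0.114). Rac1 was at 422 and 415 TPM in triple null and 323 and 377 TPM in Scribble null libraries (adjusted p = 0.538).

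Of the other called genes, Gdpd3, a lysophospholipase D gene (chromosome 7, 126766334 to 126775649), rose to 108 and 127 TPM in libraries labelled triple null, against 22.8 and 16.4 TPM in those labelled Scribble null; the log2 difference was 2.55 ± 0.25 (SE) and the adjusted p 0.00701. Yap1 Taz null and wild-type libraries, at 94 and 152 TPM and at 117 and 115 TPM, were near the triple null libraries. S100a11, a calcium-binding protein gene (chromosome 3, 93520488 to 93526287), fell to 531 and 560.4 TPM in libraries labelled triple null, against 1094 and 1064 TPM in those labelled Scribble null; the log2 difference was -0.98 ± 0.10 (SE) and the adjusted p 0.0086. Erdr1, a secreted factor first described in erythroid differentiation, fell to 401 and 386 TPM in libraries labelled triple null, against 947 and 938 TPM in those labelled Scribble null; the log2 difference was -1.26 ± 0.14 (SE) and the adjusted p 0.0127.

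Of 48 nuclear oxidative phosphorylation genes none was called, 6 were higher and none lower at an unadjusted p, and 37 had a log2 difference above 0, with a median of 0.18. Hk2, the first enzyme of glycolysis, was at 277 and 282 TPM in triple null and 135 and 133 TPM in Scribble null libraries (adjusted p = 0.0969). Vegfa, a hypoxia-induced growth factor gene in the same list, was in the other direction, at 42.2 and 35.5 TPM in triple null and 76.7 and 89.2 TPM in Scribble null libraries (adjusted p = 0.128). Of the 27 genes of glycolysis and hypoxia none was called, 3 were higher and 3 lower at an unadjusted p, with a median of 0.07. Of 24 unfolded protein response genes none was called, 6 were higher and 1 lower at an unadjusted p, with a median of 0.20. Hsp90b1, a chaperone of the endoplasmic reticulum, was at 384 and 442 TPM in triple null and 271 and 248 TPM in Scribble null libraries (adjusted p = 0.132). Of 26 sterol genes 5 were higher and 2 lower at an unadjusted p.

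Immunoglobulin transcripts were high in the triple null libraries and differed between them. Igha, the IgA heavy chain gene, was at 53.8 and 558 TPM in libraries labelled triple null, against 5.84 and 5.71 TPM in those labelled Scribble null (adjusted p = 0.128). Igkc, the kappa light chain gene, was at 55.6 and 879 TPM in triple null and 12.8 and 12.1 TPM in Scribble null libraries (adjusted p = 0.278). Jchain, which joins secreted antibodies, was at 8.0 and 54.7 TPM in triple null and 1.46 and 1.03 TPM in Scribble null libraries, all higher in triple null replicate 2. Ighm, the IgM heavy chain gene, was the reverse, at 234 and 8.75 TPM in triple null and 2.29 and 2.65 TPM in Scribble null libraries. The plasma cell genes Sdc1 and Mzb1 were under 2 TPM in all 4 libraries. Over 9 plasma cell genes included out of 14, a list chosen after these values were seen, none was called. Markers of other cells showed no call either, in 4 granulocyte, 11 erythroid, 18 megakaryocyte, 10 T and NK cell, 3 mast cell, 8 endothelial and 6 stromal genes included. At an unadjusted p under 0.05, 6 megakaryocyte and platelet markers were higher and 1 lower, with a median of 0.13. Of the erythroid markers 2 were higher and none lower, 9 of 11 had a log2 difference above 0, and the median was 0.41. The T and NK cell markers had none higher and 2 lower, with a median of -0.21. Klrb1c, an NK cell receptor gene, was at 1.31 and 4.2 TPM in triple null and 30.9 and 15 TPM in Scribble null libraries (adjusted p = 0.243), and Gata3, a T cell and stem cell factor, at 19.7 and 17.4 TPM in triple null and 103 and 35.1 TPM in Scribble null libraries (adjusted p = 0.355). The part of other cell types in the differences above was not tested.

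The libraries labelled Yap1 Taz null were compared with those labelled wild type, a comparison that shares no library with the one above. There 108 of the genes included were called, 62 higher and 46 lower (28 and 56 with median-ratio scaling), and 0.990% of all genes tested. Of the 19 genes called between triple null and Scribble null cells, 9 were called there too, 47.4% of the 19 and 8.33% of the 108. Only 5 of these 9 moved in the same direction, namely Rps3a1, Rps3a2, Rps3a3, Eno1b and S100a11. All of these but S100a11 have near-identical copies, and summing the copies ended their calls between triple null and Scribble null. The Rps3a genes are copies for 1 ribosomal protein. S100a11 was at 447 and 479 TPM in the Yap1 Taz null libraries and 948 and 1012 TPM in the wild-type libraries, with a log2 difference of -1.08 ± 0.10 (SE) and an adjusted p of 0.00204, so it was called lower in both comparisons. The other 4 were opposite. Over the 13169 genes the 2 differences correlated at -0.057 (Pearson) and -0.154 (Spearman), as a description across genes that are not independent.

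**Figure D4:**
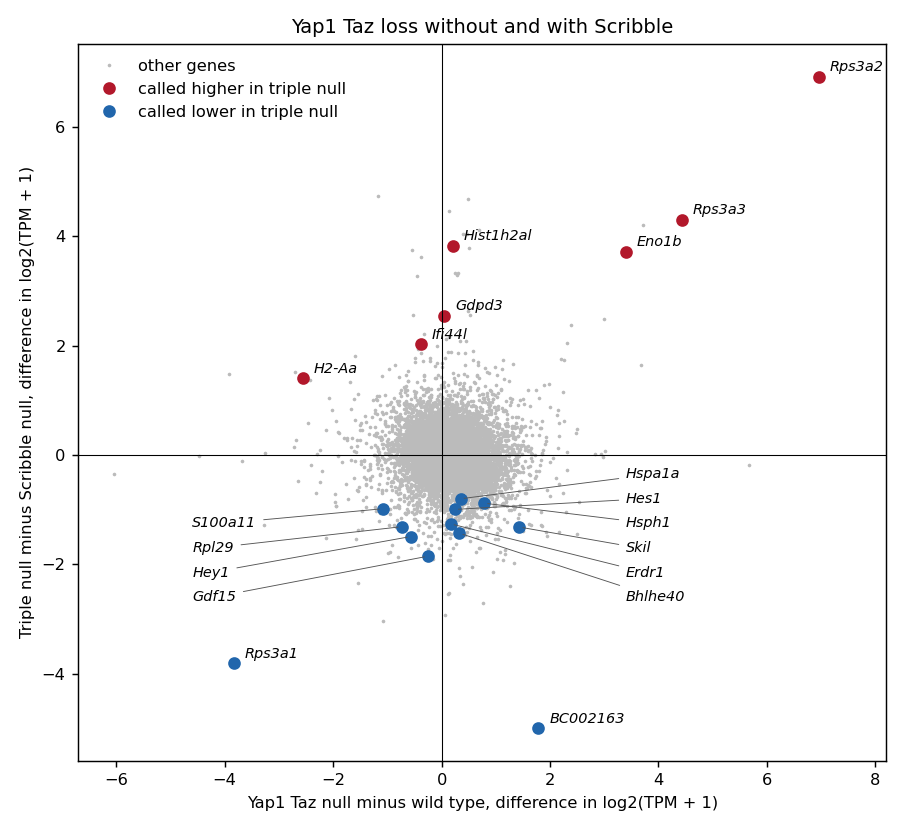
Difference of Yap1 Taz null from wild type (horizontal) and of triple null from Scribble null (vertical), each in log2(TPM + 1), for the 13169 genes included as grey points. Red and blue mark the 19 called genes; Rps3a1, Rps3a2, Rps3a3, Eno1b and S100a11 lie on the diagonal side, and H2-Aa at 1.40 and Skil at -1.32 on the vertical axis lie at -2.56 and 1.43 on the horizontal axis.

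The difference of the 2 effects was tested itself. It was called for 66 of the genes included, 31 positive and 35 negative, triple null minus Scribble null less Yap1 Taz null minus wild type (37 and 18 with median-ratio scaling), and for 0.635% of all genes tested. Its values were not centred, with a median of -0.15 over all genes tested. That median was 0.14 for Yap1 Taz null minus wild type and -0.01 for triple null minus Scribble null. At an unadjusted p under 0.05, 807 of all genes tested were positive and 1526 negative. Among the 19 called genes 11 passed this test. H2-Aa, higher in triple null than in Scribble null libraries, was lower in Yap1 Taz null than in wild-type libraries, with 234 and 258 TPM in the Yap1 Taz null libraries and 1402 and 1507 TPM in the wild-type libraries (difference of effects 3.97 ± 0.18, SE; adjusted p = 0.000103). Skil, lower in triple null than in Scribble null libraries, was higher in the other comparison, with 141 and 139.6 TPM in the Yap1 Taz null libraries and 50.1 and 52.5 TPM in the wild-type libraries (difference of effects -2.75 ± 0.18, SE; adjusted p = 0.000457). Hsph1 was likewise opposite, at 404 and 443 TPM in the Yap1 Taz null libraries and 244 and 247 TPM in the wild-type libraries (difference of effects -1.66 ± 0.15, SE; adjusted p = 0.00247). Gdpd3, Ifi44l, Hist1h2al, Bhlhe40, Erdr1, Hes1 and Hspa1a passed the test of the difference but not that of Yap1 Taz null against wild type. For Gdf15, Hey1, Rpl29 and S100a11 the difference of the 2 effects did not pass, with adjusted p of 0.0734, 0.196, 0.242 and 0.792. One property of the libraries moves with this test. The Y-linked gene Kdm5d was at 5.25 and 7.31 TPM in the Yap1 Taz null libraries and 47.5 and 42.9 TPM in the wild-type libraries. It averaged 49.2 ± 1.16 TPM in triple null and 40.7 ± 2.95 TPM in Scribble null libraries (SD, n = 2 each), and its part in the difference of the effects was not tested.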

How the data were processed

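Per the labels' protocols, RNA of sorted mouse stem cells was amplified (Ovation RNA-Seq) before Nextera XT tagmentation. TopHat and mm10 are named in the submitters' processing notes. The 8 library tables hold TPM values as deposited by the authors, with no counts, so depth is unknown; the tool that made them is not stated. A table of the whole series holds normalized signal values deposited by the authors, whose unit is not stated, and served as an alternative.

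TPM was tested as log2(TPM + 1), a scale that understates changes of low genes, with limma 3.58.1 in R 4.3.3. A mean per group was fitted over all 8 libraries, with a variance trend, on 16064 genes of at least 1 TPM in 2 libraries. P-values were adjusted over all of these by Benjamini-Hochberg. The code was tested on simulated data. Named genes were the first 15 called per direction, 4 per list and 5 per direction for the difference of effects. A few more were chosen after their values were seen, namely Igha, Hist1h2bl and BC002163, and so were further list genes given for context, such as Mecom, Procr, Ciita, Notch1, Notch2, Rbpj, Myc, Hspa8 and Hsf1. The genes included and the lists were chosen with earlier results of these data known. The Notch, plasma cell, p53 and histone lists and the Y box and heat shock motifs were chosen after seeing values here. Near-identical copies (95% identity over 80% of the length, BLAST 2.17.0, GENCODE M21) were summed as an alternative, beside other pseudocounts, filters, scalings, each library left out and a replicate block. Promoters are from RefSeq, which held 8 of the 19 called genes. Some genes that the naming rule selects are not reported here.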

Additional observations from a re-analysis of the deposited data

Results flagged for a closer look

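For the genes below, triple null against Scribble null differed from Yap1 Taz null against wild type, by a test of that difference (limma, adjusted p under 0.05). Each value is the log2 difference of triple null from Scribble null minus that of Yap1 Taz null from wild type. The median of such values over all genes tested was -0.15.

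Class II genes stood at 3.97 for H2-Aa, 3.81 for Cd74 and 3.11 for H2-Ab1. Cd74 was at 284 and 289 TPM in triple null and 106 and 113 TPM in Scribble null libraries, beside 105 and 168 TPM in the Yap1 Taz null libraries and 674 and 768 TPM in the wild-type libraries. Interferon-linked genes stood at 2.41 for Ifi44l, 2.28 for Tgtp1, 1.95 for Tgtp2, 1.44 for Ifi47, 1.32 for Isg20 and 1.53 for Psmb10. The class I-like gene H2-T3 stood at 4.46. Its log2 difference was -0.01 between triple null and Scribble null and -4.48 between Yap1 Taz null and wild type. H2-T3 was at 2.97 and 5.46 TPM in triple null and 6.02 and 2.72 TPM in Scribble null libraries. It was at 2.91 and 6.6 TPM in the Yap1 Taz null libraries and 140 and 104 TPM in the wild-type libraries. Only wild type stood apart, and the Scribble null level was already low.

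Repressors and immediate early genes were negative, with -2.75 for Skil, -1.76 for Bhlhe40, -1.24 for Hes1, -1.59 for Nr4a2, -1.44 for Egr1, -1.44 for Btg2 and -0.91 for Zfp36. Chaperones were at -1.66 for Hsph1 and -1.15 for Hspa1a, and Vegfa was at -1.71. Erdr1 was at -1.43. Clec9a, a dendritic cell gene, was at -3.15, and Pf4, a platelet gene, at 2.86. Gdpd3 was at 2.50 and Hist1h2al, whose near-identical copies make it uncertain, at 3.62. The Y-linked Kdm5d was at 2.95, and its Yap1 Taz null libraries stood apart at 5.25 and 7.31 TPM.

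The remaining genes were among those furthest apart in each direction. Hist1h4b was at 5.41, Klk1b22 at -5.86, Zfp69 at -3.95, Zfp990 at -2.97 and Ncoa4 at -2.94. For Klk1b22 the log2 difference was -0.19 between triple null and Scribble null and 5.67 between Yap1 Taz null and wild type. BC002163 was at -6.78, a value that depends on the pseudocount since the gene is listed at 0 in triple null libraries.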

How the results depend on the processing

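Of genes called between triple null and Scribble null cells (19), Yap1 Taz null and wild type (108) and in the difference of these effects (66), the first count was within 1.5 times under other pseudocounts, filters and scalings. With only the 4 libraries compared it was 4. Without a mean-variance trend the counts were 10, 65 and 26, and in the table of the whole series 12, 69 and 39. With no filter on low values the later counts were 64 and 33. Leaving out 1 library gave 11 to 43, 28 to 92 and 22 to 91. Median-ratio scaling split the counts into 10 higher and 11 lower, 28 and 56, and 37 and 18, against 7 and 12, 62 and 46, and 31 and 35 as reported. Summing near-identical copies reversed Rps3a2 and Rps3a3 (log2 -0.43) and Eno1b (-0.19). The causes of these shifts were not tested. The cases counted next cover 152 named genes. Only the 19 called as reported could lose a call, so unchanged cases of the others do not measure how stable the calls were. Values of single genes kept direction and side of the threshold in 2878 cases, while 102 no longer passed and 28 newly passed.

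Replicate numbers did not pair the libraries: deviations of same-numbered triple null and Scribble null libraries correlated at -0.031. With a replicate block the counts were 19 (17 of them among the 19), 72 and 41.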

Other observations

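Chromosome 3, which carries Wwtr1, held 5 of the 19 called genes and 4.83% of the 12761 genes placed by the annotation, an observation made after the values were seen and not tested. They were Ifi44l, Rps3a1, Hey1, Skil and S100a11, at 94.2, 28.6, 48.8, 26.3 and 35.9 Mb from Wwtr1. Among symbols set aside as -ps or Gm, 15 were called, 11 higher and 4 lower in triple null cells.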
